A study of Bos taurus with 60 samples.

Results

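bta-miR-192, bta-miR-215 and bta-miR-194 were followed through the livers of 60 beef steers as the 3 mature bovine miRNAs of those exact names, out of 1030 mature miRNAs listed in the count tables. Small RNA was sequenced from 1 liver sample per steer, with 20 steers each of the Angus, Charolais and Kinsella Composite (KC) breeds. Residual feed intake (RFI) is the feed an animal eats beyond what its size and growth call for, so low-RFI animals are the feed-efficient ones. The labels gave 6 steers of each breed as low-RFI and 6 as high-RFI, and left the other 8 of each breed without an RFI group. All were castrated males finished on the same barley-based diet with rumensin pellets. Angus and Charolais were purebred, whereas KC steers came from a crossbred dam line mated to Angus, Charolais or hybrid bulls. The breeds were slaughtered at different mean ages, so breed and age cannot be told apart. The study had picked the steers compared by RFI in part for a miRNA profile like the rest of their breed, which limits them as a sample of the breed.

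A miRNA guides an Argonaute protein to messenger RNAs that pair with its seed, the stretch near its 5′ end, and lowers the output of those messages. miR-192 and miR-215 carry the same seed and are usually treated as a single targeting family, while miR-194 carries another seed but is made from the same primary transcripts: one copy of its gene lies beside miR-192 and another beside miR-215. All are abundant in liver, intestine and kidney epithelium, and p53 can induce them.

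The mature sequences, from the study's own list of the known miRNAs it detected, are shown because the seed and the few differing bases decide both what the members can target and how well their reads can be told apart. Capitals mark the seed, bases 2 to 8 from the 5′ end.
bta-miR-192: cUGACCUAugaauugacagccag
bta-miR-215: aUGACCUAugaauugacagaca
bta-miR-194: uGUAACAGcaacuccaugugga
bta-miR-194b: cACAUGGAguugcuguuaca
bta-miR-194b-3p: aCAUGGAGuugcuguuacaaucg

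bta-miR-192 and bta-miR-215 were identical at 20 of the 22 bases that could be compared. They differed by C1A and C20A, counted from the 5′ end with the base of bta-miR-192 given first, and bta-miR-192 had 1 base more at its 3′ end. Bases 2 to 19 formed an unbroken identical run of 18. A read confined to that run could not be assigned to either miRNA from its sequence. The split of reads between these 2 is uncertain at least to that extent, and so are their ratio and seed shares below. How the counting treated such reads was not examined. No other of the 588 listed sequences shared their seed, and none shared the seed of bta-miR-194, whose longest stretch in common was 5 bases with bta-miR-192 and 4 with bta-miR-215. The names bta-miR-194b and bta-miR-194b-3p belong to the opposite strand: all 20 bases of the former were the reverse complement of bases 1 to 20 of bta-miR-194, and 19 of the 23 bases of the latter were the reverse complement of bases 1 to 19.

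RefSeq places the genes in pairs. On chromosome 29 of its bovine assembly, MIR192 and MIR194-2 lie beside each other inside the span of EHD1, which encodes an endosomal recycling protein. On chromosome 16, MIR215 and MIR194-1 lie beside each other inside the span of IARS2, which encodes the mitochondrial isoleucyl-tRNA synthetase. All 4 precursors of the members were matched there by name; that assembly is not the UMD3.1 build of the counts, so no coordinates are given. The genes of miR-194b overlap those of miR-194 at both places.

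The total count per library ran from 1930859 to 6759381 reads, with breed medians of 3720336 (Angus), 4405876 (Charolais) and 5547018 (KC). The lowest count of a member in any library was 435465 for bta-miR-192, 18094 for bta-miR-215 and 3339 for bta-miR-194, so counting error was small beside the differences among steers. The hepatocyte marker bta-miR-122 was read in every library, at 5203 to 18848 CPM, counts per 1000000 reads. Lists of 6 leukocyte, 3 erythroid, 2 endothelial, 5 stellate and fibroblast and 5 biliary epithelial miRNAs were likewise all detected, as whole liver tissue holds those cells too; a change in cell number and a change in RNA per cell cannot be told apart in it. Levels below are CPM after scaling by the TMM factor of each library, which corrects for a few miRNAs taking up much of a library. 2 libraries stood apart with factors of 0.673 and 0.643, against 0.821 to 1.158 in the other 58. They belonged to an Angus and a Charolais steer, both without an RFI group, so the RFI comparisons do not use them. Values given elsewhere include them unless stated.

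bta-miR-192 was 1 of the 2 most abundant miRNAs in every liver. It averaged 243163 ± 29839 CPM (SD, n = 20) in Charolais, 232234 ± 36816 CPM (SD, n = 20) in Angus and 228332 ± 16873 CPM (SD, n = 20) in KC. Before TMM scaling, its mean share of the total count was 23.7%, 23.1% and 23.3%, so Angus and KC changed order. The CPM ranges of the breeds overlapped, although 11 Charolais steers lay above the highest KC steer. bta-miR-215, with the same seed, was read far less: 9740 ± 1182 CPM (SD, n = 20) in Charolais, 8443 ± 1274 CPM (SD, n = 20) in Angus and 7236 ± 598 CPM (SD, n = 20) in KC, at ranks 12 to 24 in single livers. bta-miR-194 was the least abundant of the members, at 1991 ± 243 CPM (SD, n = 20), 1807 ± 185 CPM (SD, n = 20) and 1881 ± 190 CPM (SD, n = 20) in the same order, with ranks 31 to 40. Without the library that stood apart, the Angus mean of bta-miR-192 was 226131 ± 25387 CPM (SD, n = 19). The members together held 24.4% ± 2.07 (SD, n = 60) of all counts, nearly all of it carrying the shared seed of bta-miR-192 and bta-miR-215. The plot of levels by breed and RFI group shows each steer.

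**Figure D1:**
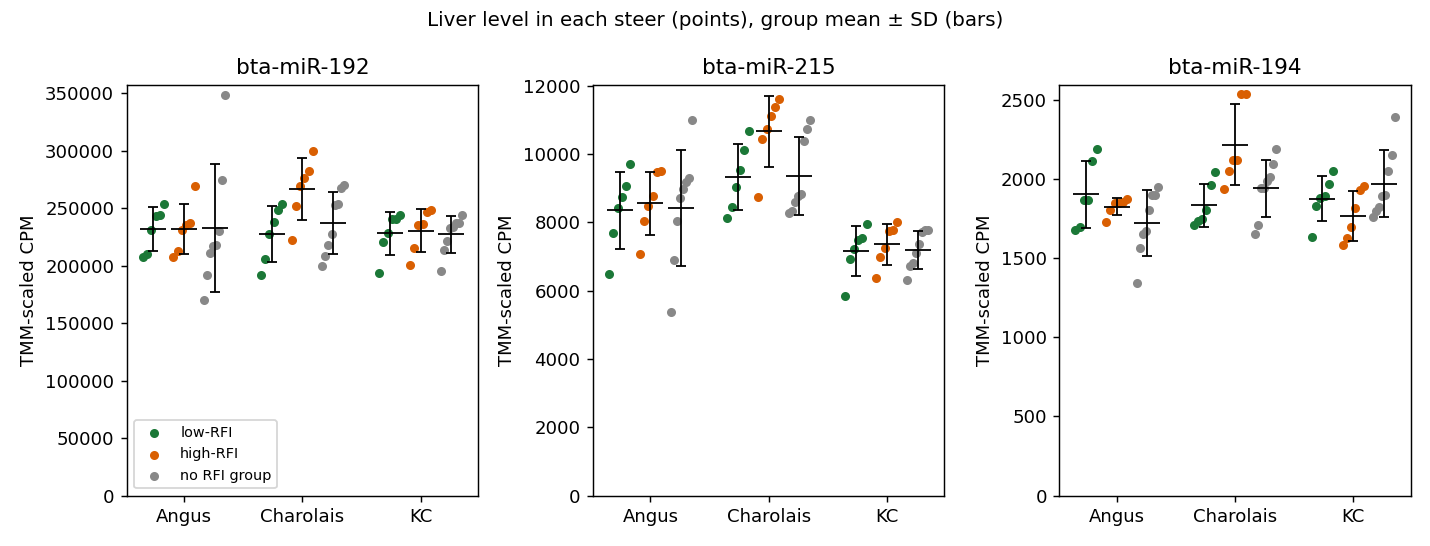
TMM-scaled CPM (vertical axes, starting at 0) of the 3 members in each of the 60 steers (points), by breed and by RFI group, with the group mean and SD as bars. Charolais and KC separate fully for bta-miR-215 (8139 to 11616 CPM against 5848 to 8003 CPM), while the breeds overlap for the other members; the highest Angus point for bta-miR-192, 348179 CPM, is the Angus library with a TMM factor of 0.673.

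Breeds were compared over all 60 steers with edgeR's quasi-likelihood test across 425 miRNAs. Only bta-miR-215, 1 of the 3 members, was called at an adjusted p under 0.05 for a difference among the breeds, where 19.5% of all miRNAs tested were called. Its lowest, median and highest levels were 5364, 8725 and 10984 CPM in Angus, 8139, 9818 and 11616 CPM in Charolais, and 5848, 7307 and 8003 CPM in KC. Every KC steer lay below every Charolais steer, which was so, in either direction, for 1.65% of the miRNAs tested. Angus steers ran through the whole range of KC and most of that of Charolais.

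In pairs of breeds, bta-miR-215 was lower in KC than in Charolais by a log2 fold change of -0.43 (SE 0.058, edgeR adjusted p = 1.48e-08), a comparison in which 16.7% of all miRNAs were called. It was lower in KC than in Angus by -0.22 (SE 0.058, edgeR adjusted p = 0.00471, background 12.9% called). The count tables listed 52 pairs of miRNA and precursor for KC only, a difference that cannot be told apart from breed. Without these pairs fewer miRNAs were called in both comparisons with KC. In Charolais bta-miR-215 was higher than in Angus by 0.21 (SE 0.058, edgeR adjusted p = 0.0357, background 2.35% called). This last call was lost with upper-quartile factors (adjusted p = 0.140), with library totals alone (0.109), with totals without bta-miR-192 (0.130) and without a filter on low counts (0.0515). Over all 10 alternatives the adjusted p ran from 0.0128 to 0.140. Without the 2 libraries that stood apart, all 3 differences of bta-miR-215 kept their direction and their call. On the plain share of the total count the separation of KC and Charolais was not complete, with 0.560% to 0.841% in KC and 0.535% to 1.102% in Charolais. The lowest Charolais share was that of the library that stood apart, but the lowest among high-RFI Charolais steers, 0.835%, was also inside the range of KC.

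bta-miR-192 and bta-miR-194 were not called between breeds, with edgeR adjusted p = 0.431 and 0.103. The largest difference of bta-miR-192 was -0.09 on the log2 scale in KC against Charolais (SE 0.056), a comparison in which all 20 KC steers nevertheless lay below the Charolais median of 250296 CPM. The largest of bta-miR-194 was 0.14 higher in Charolais than in Angus (SE 0.051, edgeR adjusted p = 0.119). The call thus fell on the less abundant carrier of the shared seed; whether the carriers differed from each other was tested through their ratio. bta-miR-215 supplied 3.86% ± 0.182 (SD, n = 20) of the reads with that seed in Charolais, 3.53% ± 0.433 (SD, n = 20) in Angus and 3.07% ± 0.124 (SD, n = 20) in KC.

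A ratio of 2 counts from the same library needs no scaling, and the bta-miR-192/bta-miR-215 ratio also differed among the breeds. It averaged 24.99 ± 1.40 (SD, n = 20) among Charolais steers, against 31.6 ± 1.36 (SD, n = 20) among KC steers. All but 1 of the Charolais steers fell between 23.6 and 25.9, and all KC steers between 29.5 and 34.6. The remaining Charolais steer, at 30.3, was the one whose library stood apart. KC exceeded Charolais by 0.34 on the log2 scale (two-sided permutation test, p = 1e-05, the smallest that 100000 resamples can give; 4.5e-05 adjusted over 9 tests).

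The 20 Angus steers averaged 27.7 ± 3.51, with a wider SD than either other breed, and did not spread evenly. 9 of them had ratios from 23.6 to 24.8, within the range of Charolais. 10 had ratios from 29.5 to 32.0, near the range of KC. A single steer lay between, at 26.9. The Angus mean therefore describes few Angus steers, although it differed from Charolais by -0.14 (adjusted p = 0.0056) and from KC by 0.20 (adjusted p = 0.00012) in the permutation tests. The ranges were present on either side of the RFI contrast: low-RFI Angus steers had ratios of 23.8, 24.1, 26.9, 30.2, 31.7 and 32.0, and high-RFI steers 24.3, 24.5, 24.8, 29.5, 30.1 and 30.7.

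Steers of the same Angus sire also fell on either side. The 6 steers of the largest paternal family had ratios of 23.6, 24.8, 26.9, 30.1, 31.5 and 31.7. The 5 of the next had 23.8, 23.9, 30.7, 31.5 and 31.7, and the 3 of the third 24.3, 24.5 and 29.5. In the 2 families of 2 steers, both members were alike, at 24.1 and 24.7 in the former and 31.7 and 32.0 in the latter. By contrast, the 8 steers of the largest Charolais family ran only from 23.6 to 25.8, and the 8 of the largest KC family from 30.4 to 33.3. The log2 ratio and the log2 total count had r = 0.51 over the 20 Angus steers, 0.48 over the Charolais and 0.08 over the KC steers. The part of depth in the 2 ranges was not tested. That of the sequencing pool could not be tested, in Angus or between breeds, because the pool of each library was not given.

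**Figure D2:**
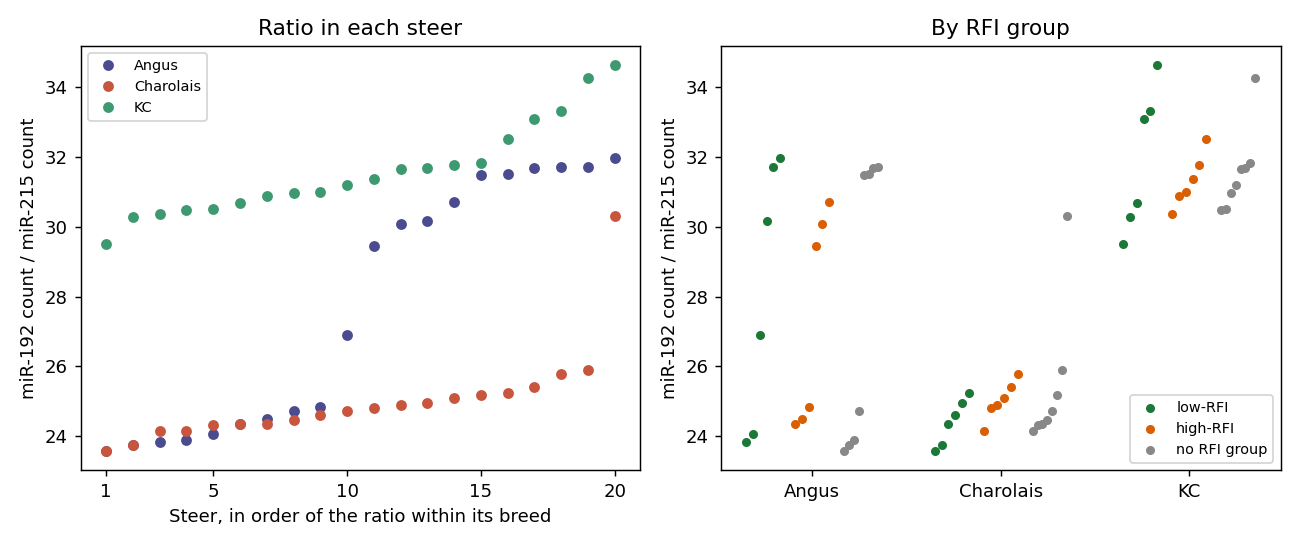
Ratio of the bta-miR-192 count to the bta-miR-215 count in each steer, ordered within its breed (left) and split by RFI group (right); the vertical axes do not start at 0. Angus points step from 24.8 over 26.9 to 29.5, following Charolais below the step and lying close to KC above it, in low-RFI, high-RFI and other steers alike.

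On chromosome 16, bta-miR-215 lies beside a gene of bta-miR-194, whose count joins both of its genes. The bta-miR-215/bta-miR-194 ratio was 4.95 ± 0.782 (SD, n = 20) in Charolais, 4.74 ± 1.08 (SD, n = 20) in Angus and 3.87 ± 0.381 (SD, n = 20) in KC. KC was lower than Charolais by -0.34 on the log2 scale (permutation adjusted p = 4.5e-05) and lower than Angus by -0.27 (adjusted p = 0.0015). Charolais and Angus differed by 0.08 (adjusted p = 0.492). The bta-miR-192/bta-miR-194 ratio, with bta-miR-192 beside the other gene on chromosome 29, was 123 ± 18.1 (SD, n = 20), 131 ± 33.0 (SD, n = 20) and 122.01 ± 9.36 (SD, n = 20). No pair of breeds differed in it beyond the spread of the steers, with adjusted p from 0.492 to 0.924, and all 3 differences changed sign when medians replaced means. Without the library at 259, the Angus mean was 124 ± 13.4 (SD, n = 19). The breed differences of the other ratios kept their direction and their side of the threshold without the 2 libraries, as did those of this one.

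The mature bta-miR-194 is identical from either of its genes, so the counts listed for its precursors do not separate them. They were 8181 ± 2462 (SD, n = 60) for mir-194-1 and 8753 ± 2625 (SD, n = 60) for mir-194-2. Their ratio stayed between 0.910 and 0.953 in all 60 livers, with mir-194-2 ahead each time, while the bta-miR-192/bta-miR-215 ratio of the neighbouring miRNAs ran from 23.6 to 34.6. The antisense bta-miR-194b and bta-miR-194b-3p were almost unread. They averaged 0.833 and 1.27 counts per library, and 0 and 3 of the 60 libraries exceeded the floor of 3 counts.

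RFI groups were compared within each breed by the study's own rule, an unadjusted p under 0.05 together with a change above 1.5-fold, using edgeR's quasi-likelihood test. None of the 3 members was called in Angus, Charolais or KC. Among the 373 miRNAs tested in either purebred, the rule called 2.41% for Angus and 1.88% for Charolais; among the 385 tested for KC it called 1.82%. No miRNA passed an adjusted p of 0.05 in any of them. In Angus the unadjusted rule on p alone passed 14 miRNAs, in Charolais 19 and in KC 14.

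The lowest log2 differences of all 3 members were those in Charolais. There, in the low-RFI group, bta-miR-192 measured 191811, 205748, 227835, 237712, 248689 and 253185 CPM from the lowest to the highest steer. In the high-RFI group it measured 222080, 251903, 269014, 276490, 282144 and 299499 CPM. The ranges overlapped, but all 6 low-RFI steers lay below the median of the high-RFI steers.

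The same held for the other members in Charolais. bta-miR-215 measured 8139, 8449, 9026, 9530, 10106 and 10665 CPM in low-RFI steers and 8743, 10439, 10726, 11109, 11379 and 11616 CPM in high-RFI steers. bta-miR-194 measured 1706, 1737, 1747, 1805, 1962 and 2042 CPM against 1938, 2047, 2119, 2122, 2533 and 2533 CPM. All 6 low-RFI steers were again below the high-RFI median, and for bta-miR-194 4 of them were below the lowest high-RFI steer. For these orders, and those in the other breeds below, the share over all miRNAs tested was not counted. bta-miR-215 followed bta-miR-192 across Charolais steers (r = 0.91), so its order is not a separate result.

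On the log2 scale these differences were -0.20 (SE 0.086) for bta-miR-192, -0.16 (SE 0.093) for bta-miR-215 and -0.24 (SE 0.096) for bta-miR-194, where the median over all miRNAs tested was 0.0027. In edgeR the unadjusted p was 0.0330, 0.0934 and 0.0219. So 2 of the 3 members passed an unadjusted 0.05, as did 5.09% of all miRNAs, and the adjusted p was 0.865, 0.907 and 0.752. These are below 1.5-fold and are not called. The direction held when each steer was left out in turn, with log2 values of -0.25 to -0.13, -0.22 to -0.10 and -0.27 to -0.19, and under the 10 other settings tried besides the sire block. With upper-quartile factors, with library totals alone and without a filter on low counts, none of the 3 passed an unadjusted 0.05; with totals alone p was 0.0728, 0.246 and 0.115. In edgeR over all 36 steers, which pools the spread of the breeds, the unadjusted p was 0.00598, 0.0411 and 0.00130. By p, the members took places 4, 24 and 1 among the 426 miRNAs of that fit. The share of all miRNAs under 0.05 there was not counted. bta-miR-192 and bta-miR-215 rose and fell together, so these are not 3 independent results. The edgeR adjusted p in that fit was 0.550, 0.727 and 0.550.

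Other measures differed between these Charolais groups. The median total count was 4068319 in low-RFI and 5113839 in high-RFI steers, and the log2 total count had r = 0.57 with bta-miR-194, 0.26 with bta-miR-192 and 0.06 with bta-miR-215 over the 20 Charolais steers. The 6 hepatocyte miRNAs summed to 138088 to 160068 CPM in low-RFI and 143611 to 169745 CPM in high-RFI steers, but 84.1% of that sum over all steers is bta-miR-148a. It was the only one of the 6 with a negative log2 difference (-0.08); the median over the list was 0.09. bta-miR-122 was at 0.32 (SE 0.13, edgeR unadjusted p = 0.0245, adjusted p = 0.752) and bta-miR-885 at 0.28 (SE 0.20, adjusted p = 0.987), against negative differences of all 3 members. The 5 biliary miRNAs summed to 158 to 287 CPM and 186 to 353 CPM. No member of either list was called. 4 of the 6 high-RFI steers but 1 of the 6 low-RFI steers came from a single sire, the only sire with steers in both groups. A contrast within sires therefore rests on that 1 low-RFI steer; with the sire as a block it was -0.41, -0.30 and -0.35 for the members (edgeR adjusted p = 0.277, 0.472 and 0.464), which says little about the sire's part. The part of depth, cell makeup and sire in the Charolais differences was not tested beyond these values.

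In Angus the RFI groups were interleaved for bta-miR-192, with low-RFI steers at 207764 to 253863 CPM and high-RFI steers at 207836 to 269117 CPM, a log2 difference of 0.03 (SE 0.069). For bta-miR-215 the difference was -0.0078 (SE 0.094), and 3 of the 6 efficient steers exceeded the median of the others. bta-miR-194 differed by 0.09 (SE 0.074); the high-RFI steers kept to 1729 to 1873 CPM, while low-RFI steers ran from 1679 to 2186 CPM and had 2 steers above and 2 below that span. edgeR adjusted p was 0.984, 0.993 and 0.970.

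In KC the groups overlapped as closely. bta-miR-192 differed by 0.02 (SE 0.066) and bta-miR-215 by -0.0043 (SE 0.077) on the log2 scale. bta-miR-194 measured 1631, 1826, 1876, 1894, 1967 and 2047 CPM in low-RFI steers against 1581, 1627, 1694, 1816, 1932 and 1957 CPM in high-RFI steers. Of the efficient steers, 5 exceeded the median of the inefficient ones, a difference of 0.12 (SE 0.072). edgeR adjusted p for the members in KC was 0.995, 0.995 and 0.966.

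**Figure D3:**
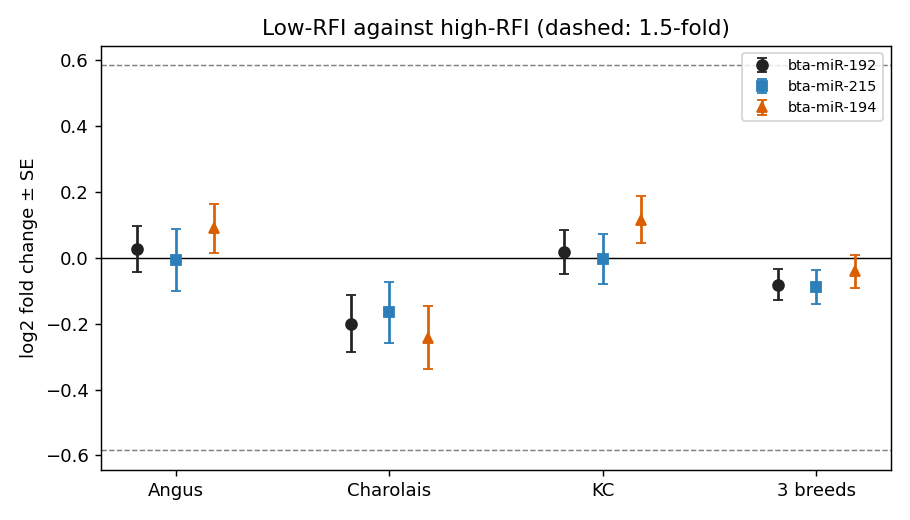
Log2 fold change of low-RFI against high-RFI steers with its standard error (vertical axis) for each member, within each breed and over the 3 breeds with breed as a term; dashed lines mark 1.5-fold. All points lie inside the dashed lines; the Charolais points are the lowest, at -0.20, -0.16 and -0.24.

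Over the 36 steers with breed as a term, the differences were -0.08 (SE 0.047) for bta-miR-192, -0.09 (SE 0.052) for bta-miR-215 and -0.04 (SE 0.051) for bta-miR-194. None of the 3 was called at an adjusted p under 0.05, with edgeR adjusted p = 0.956, 0.956 and 0.978; 0% of the 426 miRNAs tested were. 13 of the 426 passed an unadjusted 0.05, and the likelihood-ratio test and DESeq2 also called 0. The direction of bta-miR-194 turned to 0.02 with library totals alone.

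Whether the RFI difference itself varied among breeds was tested by the interaction. bta-miR-194 had an unadjusted p of 0.00376 in edgeR, the only member of the 3 under 0.05, where 3.76% of all miRNAs were. Its adjusted p was 0.400 and ran from 0.356 to 1 over the alternatives, so it was not called, and 0% of the 426 miRNAs were by the main test. The likelihood-ratio test and DESeq2 called 1 miRNA each, neither of them a member. The RFI difference of bta-miR-194 was 0.35 higher in KC than in Charolais (SE 0.11, edgeR adjusted p = 0.366) and in Charolais it differed from that in Angus by -0.33 (SE 0.11, edgeR adjusted p = 0.733). For bta-miR-192 and bta-miR-215 the unadjusted p was 0.0853 and 0.385, and the adjusted p 0.994 for either.

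Ratios between members were also compared between RFI groups, with an exact two-sided permutation test in each breed. The lowest p was that of bta-miR-192 to bta-miR-194 in KC. Low-RFI steers had ratios of 117, 119, 121, 121, 122.1 and 130, and high-RFI steers 123, 127, 128, 130, 136 and 139. That was a log2 difference of -0.10 (exact permutation p = 0.0238, 0.214 adjusted over 9 tests), with 5 of 6 low-RFI steers below every high-RFI steer. The exception was low-RFI replicate 1 of KC, at 130. Leaving out that steer makes the separation complete by the choice itself, so the permutation adjusted p of 0.0390 without it is no support. The difference is not called over all steers. The other 8 comparisons had exact permutation p from 0.0693 to 0.779.

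Across steers, bta-miR-192 and bta-miR-215 rose and fell together although their genes lie on different chromosomes. With the breed mean taken off, log2 CPM gave r = 0.78 and rho = 0.70 over 60 steers (permutation p = 1e-05 for each, the smallest that can occur; 3e-05 adjusted over 3 pairs), and r = 0.71 without the 2 steers farthest from the median. Within breeds r was 0.91 in Charolais, 0.87 in KC and 0.67 in Angus. In Angus the points lie in the bands that the ratio describes, so the pooled value runs across them; the values of Charolais and KC do not. Without the Charolais library that stood apart, the Charolais r was 0.98. The members share a library total of which bta-miR-192 alone is 23.4%, and they share the identical run of bases 2 to 19. The part of shared scaling and of reads assigned to the wrong member in this correlation was not tested. With the total of all other miRNAs as the scale, r was 0.84.

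**Figure D4:**
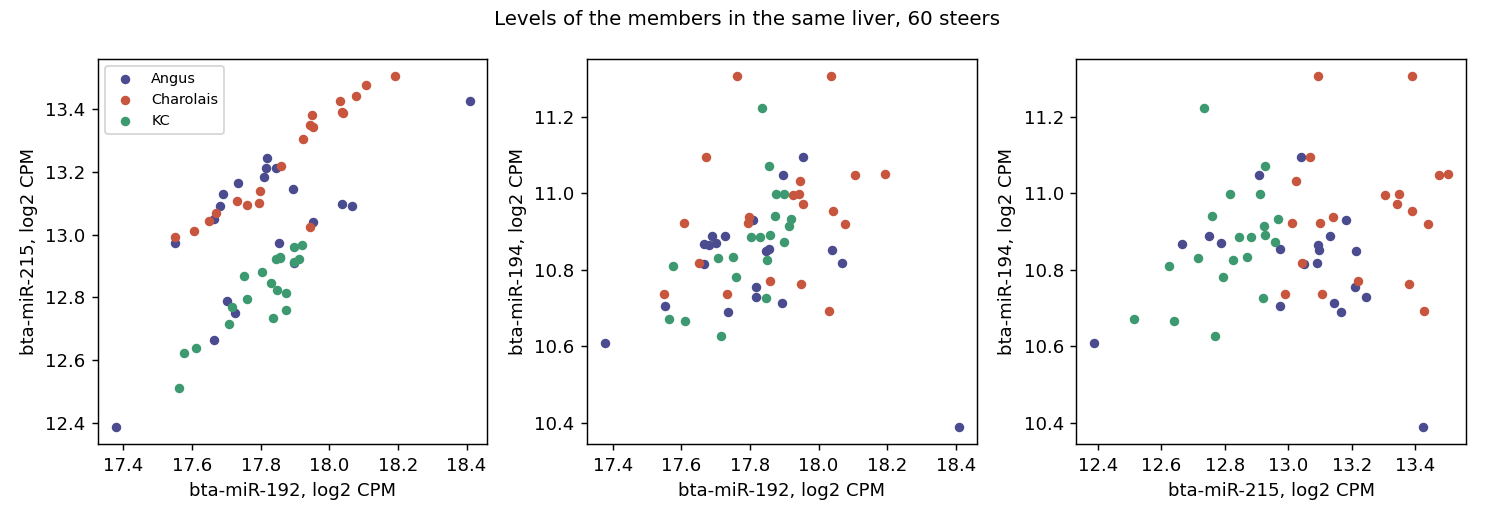
Log2 CPM of each pair of members in the same liver, coloured by breed, 60 steers. bta-miR-192 and bta-miR-215 (left) rise together along separate bands for Charolais and KC, r = 0.91 and 0.87, with Angus on both bands; bta-miR-194 (middle and right) has r = 0.15 and 0.04 with them, and the Angus point at the lower right of the middle panel is the library with a TMM factor of 0.673.

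bta-miR-194 was less like either of them. Its count joins both of its genes, so the likeness of each pair of genomic neighbours was not measured. bta-miR-192 and bta-miR-194 had r = 0.15 (permutation p = 0.278) and rho = 0.31 (p = 0.0201, 0.0302 adjusted over 3 pairs). The value of r was sensitive to a single library, that of the Angus steer with a TMM factor of 0.673. In it bta-miR-192 was at 348179 CPM and bta-miR-194 at 1342 CPM, the highest and the lowest of all 60. Before scaling, bta-miR-192 held 23.43% of that library, near its mean of 23.37% over 60 steers, and bta-miR-194 held 0.0903%. Without that steer r was 0.39 (permutation adjusted p = 0.00501). Within breeds r was 0.62 in KC, 0.24 in Charolais and -0.16 in Angus, which became 0.47 in Angus without that steer.

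bta-miR-215 and bta-miR-194 had r = 0.04 and rho = 0.05 (permutation p = 0.786 and 0.698), with 0.38 in KC, 0.11 in Charolais and -0.19 in Angus. The value depends on the scale. With the total of all miRNAs other than the members as the scale, r was 0.43 for this pair and 0.42 for bta-miR-192 and bta-miR-194 (permutation adjusted p = 0.00288 and 0.0027). Under each of the alternatives run, bta-miR-192 correlated more with bta-miR-215 (r from 0.68 to 0.84) than either did with bta-miR-194 (r from -0.05 to 0.43); the difference between these correlations was not tested.

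Among the other 107 miRNAs with at least 100 CPM on average, the pattern most like bta-miR-192 across steers was that of bta-miR-215, followed by bta-miR-148a (r = 0.67), bta-miR-98 (0.51), bta-miR-30a-5p (0.50) and bta-miR-151-3p (0.50), with the breed mean taken off. bta-miR-148a, itself an abundant liver miRNA that targets the LDL receptor, was also next to bta-miR-215 (0.48), ahead of bta-miR-660 (0.35), bta-miR-101 (0.34) and bta-miR-769 (0.33). The least like both were bta-miR-16b, at -0.49 and -0.39, and bta-miR-497, at -0.49 and -0.37. The third lowest was bta-miR-27a-3p (-0.34) for bta-miR-192 and bta-miR-126-3p (-0.32), an endothelial miRNA, for bta-miR-215. The other listed endothelial miRNA, bta-miR-126-5p, went the other way, with r = 0.21 for bta-miR-215.

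bta-miR-194 kept other company. It was most like bta-miR-28 (0.53), bta-let-7g (0.50), bta-miR-22-3p (0.48), bta-miR-125b (0.39) and bta-miR-151-5p (0.39), and least like bta-miR-30e-5p (-0.45), bta-miR-148b (-0.37) and bta-miR-660 (-0.37). The median over the 107 was 0.09 for bta-miR-192, 0.01 for bta-miR-215 and 0.05 for bta-miR-194. These are descriptions over 60 steers that share a scaling step, and they carry no test. Without the 2 libraries that stood apart, 3 of the 5 most alike and 2 of the 3 least alike remained for each member; bta-miR-215 and bta-miR-148a (r = 0.55) stayed nearest to bta-miR-192, and bta-miR-194 moved from place 43 to place 5 for it. The summed hepatocyte list, mostly bta-miR-148a, had r = 0.66 with bta-miR-192, 0.46 with bta-miR-215 and -0.10 with bta-miR-194. Without bta-miR-148a these were 0.27, 0.17 and 0.08, and for bta-miR-122 alone -0.01, -0.06 and 0.18. In the same order, the stellate and fibroblast list had r = 0.42, 0.19 and -0.08. The endothelial list had 0.23, 0.15 and -0.02, and the erythroid list 0.18, 0.13 and -0.02. The leukocyte list had -0.19, -0.19 and 0.38, and the biliary list 0.01, -0.02 and 0.28. Of the 6 hepatocyte miRNAs, bta-miR-122 and bta-miR-885 were called among breeds (edgeR adjusted p = 0.0311 and 0.00082), against the 19.5% called of all miRNAs, and none was called by RFI.

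bta-miR-192 had served the study as a reference for quantitative PCR in Charolais, together with bta-miR-93. The study chose its references by abundance and by their stability in geNorm, which is not the measure given here. The SD of its log2 CPM within breeds was 0.17, place 36 from the lowest among 108 miRNAs. bta-miR-215 had 0.18 (place 40) and bta-miR-194 0.16 (place 25), against a median of 0.21. bta-miR-93 had 0.12 (place 4), and bta-let-7b, a reference for KC, 0.13 (place 10). In Charolais alone bta-miR-192 stood at place 37 and bta-miR-93 at place 12. In KC bta-miR-192 was steadier, at place 8 with an SD of 0.11, and in Angus it was at place 66 with 0.21, or place 50 with 0.16 without the Angus library that stood apart.

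Paternal families of at least 5 steers differed little from the other steers of their breed. In the 2 Angus families, of 6 and 5 steers, bta-miR-192 averaged 0.954 and 1.11 times the level of the rest, bta-miR-215 0.945 and 1.07 times, and bta-miR-194 0.976 and 0.916 times. The second of these families holds the Angus library that stood apart. The Charolais family of 8 holds 4 high-RFI steers and 1 low-RFI steer. Its members were at 1.04, 1.05 and 1.12 times the level of the rest, in the same order. There bta-miR-194 averaged 2127 ± 288 CPM (SD, n = 8) against 1900 ± 163 CPM (SD, n = 12) in the others. In the KC family of 8 the members were at 0.989, 0.997 and 0.963 times the level of the rest. All these family ranges overlapped those of the other steers.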

How the data were processed

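The authors clipped adapters with cutadapt 1.16 and dropped reads outside the length range of miRNAs. They removed other small RNAs, aligned with Bowtie 1.1.1 to UMD3.1, and deposited raw read counts per mature miRNA and precursor from miRDeep2 for each of the 60 livers. Counts of several precursors were averaged and rounded for tests, as in the study. The KC counts held 52 pairs of miRNA and precursor that were absent for the other breeds. The pool in which each library was sequenced is not given in the sources used here. Members and lists were chosen with earlier results of these data known. RFI groups (the miRNA at 1 CPM or more in at least 6 steers) and breeds (at least 10 steers) were compared in edgeR 4.0.16 with TMM factors and the quasi-likelihood test, p-values being adjusted by Benjamini-Hochberg over all miRNAs tested; the fit was tested on simulated data. DESeq2 1.42.0, other scalings and filters were alternatives. Each within-breed test scaled its own 12 libraries again, so its fold change can differ slightly from the ratio of the printed CPM. Log2 levels used CPM plus 0.5. Exact permutation tests used scipy 1.17.1, and the others drew 100000 resamples with numpy 2.4.6. Named miRNAs were the members and those of the name 194b or the same seed. With them were the 5 most and 3 least alike to each member among miRNAs of at least 100 CPM. Also named were bta-miR-122, called hepatocyte miRNAs, bta-miR-126-5p, and bta-miR-93 and bta-let-7b as quantitative PCR references. The other reference for KC, bta-miR-2284x, was not among them. p-values over 1 liver per steer measure spread among steers; steers of 1 sire are not independent.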

Additional observations from a re-analysis of the deposited data

Results flagged for a closer look

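Within each breed and RFI group, the highest and the lowest steer were compared with the rest by Dixon's criterion at its 95% level, for the 3 levels and the 3 ratios in 9 groups. 6 of the 54 sets of values held a steer far from the others, where chance gives about 1 in 20. All 6 were ratios. The ratios of a steer share counts, and some steers were flagged in more than 1 ratio, so the flags are not independent.

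The bta-miR-192/bta-miR-215 ratio was 30.3 in a Charolais steer without an RFI group, where the nearest of the other 7 was at 25.9 and the lowest at 24.2; this is the Charolais library with a TMM factor of 0.643. The same ratio was 34.3 in a KC steer without an RFI group, next to 31.8. The bta-miR-192/bta-miR-194 ratio was 259 in an Angus steer without an RFI group, next to 152, and the bta-miR-215/bta-miR-194 ratio was 8.19 in the same steer, next to 5.56; this is the Angus library with a TMM factor of 0.673, in which bta-miR-194 held 0.0903% of the count. The bta-miR-192/bta-miR-194 ratio was 130 in a KC low-RFI steer, next to 122.1. The bta-miR-215/bta-miR-194 ratio was 2.86 in the KC steer whose bta-miR-192/bta-miR-215 ratio was 34.3, below the next at 3.52.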

How the results depend on the processing

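Of 495 values recomputed under settings other than leaving out a steer, 433 kept their direction and their side of the threshold, or a count within 1.5-fold; 30 reversed, 18 moved, 7 became stronger and 7 weaker. The causes were not tested. bta-miR-215 kept its calls in KC against Charolais (adjusted p from 2.77e-11 to 7.27e-06) and KC against Angus (0.00308 to 0.0498) under all 10 alternatives. Against Angus, its Charolais difference was no longer called at 0.19 with upper-quartile factors, 0.17 with library totals alone, 0.19 with totals without bta-miR-192 and 0.20 without a filter. The count of miRNAs called there went from 10 to 6, 4 and 5 with the first 3 of these. Calls in KC against Angus fell from 55 to 27 without precursors listed only for KC, and in KC against Charolais from 71 to 46; the latter were 44 with at least 10 counts in every steer, which tests fewer miRNAs. bta-miR-192 in KC against Angus, -0.02 in the report, was 0.010 with totals alone, 0.014 with totals without itself and 0.013 without the 2 libraries that stood apart, an alternative chosen after seeing the data.

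RFI differences near 0 changed sign. In Angus, bta-miR-192 (0.03) was -0.0020 without a filter, -0.000145 with precursor counts summed, -0.0017 with sire as a block and -0.0029 in 1 fit of the 36 steers. There bta-miR-215 (-0.0078) was 0.0088 with totals without bta-miR-192 and 0.16 with the sire block, which also took bta-miR-194 from 0.09 to -0.11. In KC, bta-miR-192 (0.02) was -0.058 with upper-quartile factors, -0.0080 with DESeq2, -0.0068 with summed counts, -0.0027 without precursors listed only for KC and -0.014 in 1 fit of the 36 steers; bta-miR-215 (-0.0043) was 0.023 with totals alone and 0.040 with totals without bta-miR-192. Across breeds, bta-miR-194 (-0.04) was 0.022 and 0.017 with these totals. Its RFI difference in KC minus that in Angus (0.02) was -0.20 with upper-quartile factors and -0.0055 with at least 10 counts in every steer. Counts of called miRNAs without a filter, with at least 10 counts in every steer and with the sire block were 20, 1 and 11 against 9 in Angus, 17, 1 and 48 against 7 in Charolais, and 15, 4 and 14 against 7 in KC. Sires with steers in both RFI groups numbered 2 in Angus, 1 in Charolais and 1 in KC, the last 2 with 1 low-RFI steer each, so values with the sire block in Charolais and KC rest on 1 low-RFI steer and say nothing about stability. The sire block called 1 miRNA across breeds and 7 in the interaction, and the likelihood-ratio test and DESeq2 called 1 each in the interaction, against 0.

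With medians in place of means, RFI differences in Charolais were -0.11 for bta-miR-192/bta-miR-194 (0.04 with means) and -0.11 for bta-miR-215/bta-miR-194 (0.07). For bta-miR-192/bta-miR-194 among breeds, they were 0.066 for Charolais against Angus, 0.068 for KC against Angus and 0.0016 for KC against Charolais. For bta-miR-192 and bta-miR-194, r passed the threshold at 0.26 with totals alone, 0.42 with totals without the members, 0.39 without the 2 libraries that stood apart and 0.39 without the Angus library alone, the last 2 chosen after seeing the data. Its rho did not pass at 0.19 with totals alone, 0.31 in the 36 steers with an RFI group and 0.10 with sire means taken off. For bta-miR-215 and bta-miR-194, r passed at 0.29 with totals alone and 0.43 with totals without the members, where rho passed at 0.28; in the 36 steers r was -0.046 and rho -0.11, and with sire means taken off -0.013 and -0.045.

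Leaving out each steer in turn gave, for RFI in Angus, -0.030 to 0.071 for bta-miR-192, -0.083 to 0.029 for bta-miR-215 and 5 to 11 calls. In KC it gave -0.044 to 0.047, -0.067 to 0.033 and 3 to 13 calls. The RFI difference of bta-miR-192/bta-miR-194 ran from -0.054 to 0.086 in Charolais and from -0.12 to -0.082 in KC, that of bta-miR-192/bta-miR-215 from -0.0015 to 0.084 in Angus, and that of bta-miR-215/bta-miR-194 from -0.023 to 0.12 in Charolais. No paired analysis was possible because replicate numbers were given in accession order and pair no steers; the sire was the only block run. The Charolais differences of the members were all estimated below 1.5-fold, so the rule used did not call them, whatever their p.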
